A study of Macaca mulatta with 49 samples.

Results

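A list of 48 genes of the cell cycle was followed in central memory T cells (TCM) of rhesus macaques, from the D-type cyclins that open the cycle to the spindle proteins that close it. A gene was kept where, in CD8 or in CD4 TCM, a probe was detected (p-value below 0.05) on the arrays of 6 or more of 24 samples, and of several such probes the one with the highest mean was used. This left 31 of the 48 genes, among 9355 genes kept by the same rule over the whole array. The other 17 genes are named below and have no test.

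Resting lymphocytes sit outside the cycle until D-type cyclins with CDK4 or CDK6, and then cyclin E with CDK2, inactivate the retinoblastoma proteins and release E2F factors. The MCM helicase, loaded on origins beforehand, then opens the DNA for replication, and thymidylate synthase, thymidine kinase and ribonucleotide reductase supply the nucleotides. Cyclin A, cyclin B and CDK1 with Aurora and Polo kinases drive mitosis, the spindle checkpoint holds chromosomes until they are attached, and the anaphase-promoting complex with CDC20 ends it. Memory T cells divide slowly under the cytokines IL-15 and IL-7, so transcripts of S phase and mitosis come from the minority of cells in cycle.

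The study took CD8+ and CD4+ TCM, sorted from blood mononuclear cells, from 12 animals. In 6 animals both cell types were sampled after (post) and before (pre) an antibody against IL-15, which natural killer (NK) cells and memory T cells need for survival and turnover. In the other 6 they were sampled after and before an IgG1 control antibody, so each of the 8 groups holds 6 samples and each animal serves as its own baseline. The labels give no dose and no time since treatment, and 1 CD8 sample was hybridised on 2 arrays, which were averaged. In the labels the animals are separate but nothing is said of repeat sorts. For post against pre and CD8 against CD4, p-values measure how far the differences within an animal vary from animal to animal. For the antibody groups before treatment they measure the spread between animals. For the CD8 change minus the CD4 change, each cell type of an animal was its own block, so p-values leave out the pairing of the cell types. In bulk RNA of sorted cells, fewer cells in cycle and less RNA per cycling cell cannot be told apart.

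All values are log2 intensities after background correction and quantile normalization. The arrays carry human probes, so absence of signal in macaque RNA does not show a silent gene, and the level of one probe was not set against that of another. Of the 47230 probes, 11448 to 13720 were detected on CD8 arrays and 11993 to 14870 on CD4 arrays. CD8A was higher by 7.16 on the log2 scale in CD8 than in CD4 TCM before treatment, whereas the CD4 probe was detected in 0 of 24 CD8 and 1 of 24 CD4 samples and could not check the CD4 label. CCR7, which guides central memory cells to lymph nodes, was detected in all 48 samples. By the median correlation with their own cell type, 3 samples were least like the rest: animal 4 of the anti-IL-15 group in CD8 after treatment (r = 0.955), and animal 3 of that group in CD4 both after (0.962) and before it (0.955). Counts of called genes without these animals stand beside the results.

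Detection varied within most roles. Of the 31 kept genes, 13 were detected in all 48 samples: the G1 genes CCND2, CCND3, CDK2 and CDK4, the helicase subunits MCM4, MCM5, MCM6 and MCM7, the nucleotide synthesis genes RRM1 and TYMS, the checkpoint genes BUB3 and CDC20, and CENPF. By role, 4 of 5 genes of G1 cyclins and kinases, 7 of 10 of licensing and the replication fork and 3 of 4 of nucleotide synthesis were kept. For mitosis, 7 of 10 entry regulators, 4 of 6 genes of the spindle checkpoint and anaphase-promoting complex, 3 of 5 of chromosomes and kinetochores and 3 of 8 of spindle and microtubules were kept. Genes detected in all 48 samples made up 4 of 5 in G1, 4 of 10 in licensing and the fork, 0 of 10 among the entry regulators and 0 of 8 in the spindle. PCNA, CDC6 and GMNN, of the licensing and fork role, were detected in none.

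Of the kept genes, 24 passed through both cell types and 1, MCM2, through CD8 only, with 7 CD8 and 4 CD4 samples detected. The 6 genes TK1, UBE2C, KIF11, CDKN3, FOXM1 and PLK1 passed through CD4 only. TK1 was detected in 5 CD8 and 7 CD4 samples, UBE2C in 4 and 7, KIF11 in 4 and 8, CDKN3 in 4 and 8, FOXM1 in 2 and 6, and PLK1 in 5 and 6. These 6 lay just inside the rule, and HMMR, with 3 CD8 samples, and ZWINT, with 3 CD4 samples, lay just outside it. A gene that entered through 1 cell type is on average higher there by selection, so its difference between cell types supports nothing. The same limit holds for post against pre where detection lay mostly on one side: in CD4 TCM, UBE2C was detected in 1 of 6 samples after anti-IL-15 against 3 of 6 before it, and in 0 of 6 after IgG1 against 3 of 6 before it.

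The 17 genes not kept were MKI67, CCNB1, CCNB2, CCNE2, BUB1, RRM2, PCNA, CDC6, KIF20A, TPX2, CENPA, ZWINT, HMMR, NCAPG, DLGAP5, SPAG5 and GMNN. MKI67 encodes the Ki-67 antigen used to count cycling cells, PCNA the sliding clamp of replication, and RRM2 the regulated subunit of ribonucleotide reductase. No probe of 10 of them was detected in any sample, namely MKI67, CCNE2, BUB1, RRM2, PCNA with its 3 probes, CDC6, NCAPG, DLGAP5, SPAG5 and GMNN. CCNB2, a mitotic cyclin, was detected in 2 CD8 and 2 CD4 samples, and the other 6 in at most 3 samples of a cell type. The macaque RefSeq table lists 47 of the 48 symbols, all but TK1. The plot of detection by role shows these counts.

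**Figure D1:**
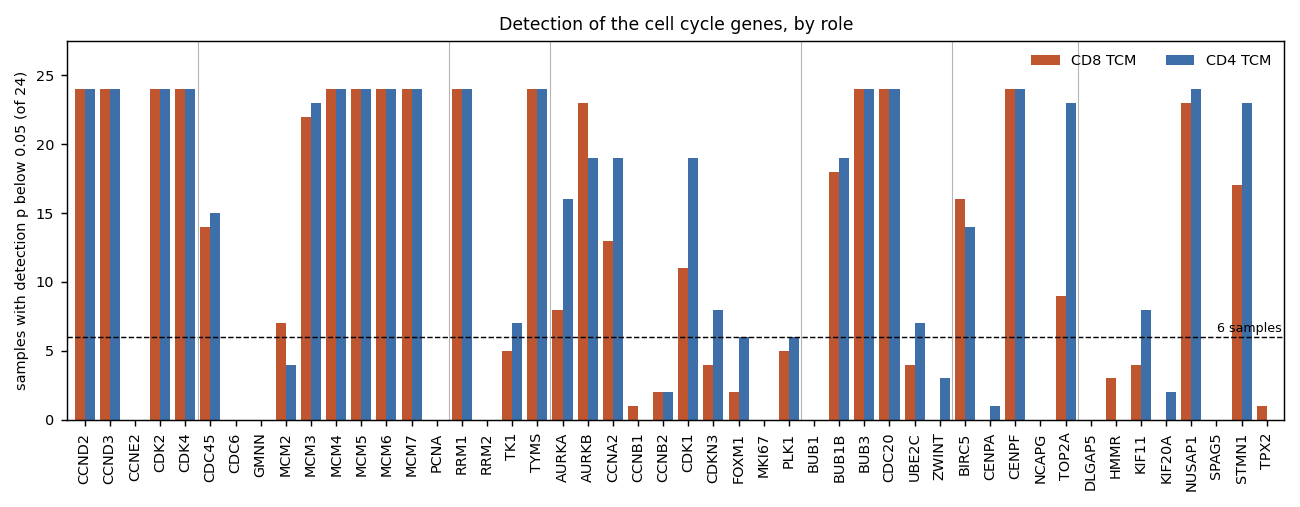
Number of the 24 samples of each cell type with a detection p-value below 0.05 (vertical axis) for each of the 48 genes (horizontal axis), with CD8 TCM left of CD4 TCM, vertical lines between roles and a dashed line at 6 samples. The 13 genes at 24 of 24 in both cell types lie mostly in G1, licensing and nucleotide synthesis, and 10 genes, MKI67 and PCNA among them, have no bar.

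Before treatment, CD8 and CD4 TCM of the same 12 animals differed in both directions. TOP2A, NUSAP1, CENPF and STMN1 were among the genes lower in CD8 TCM, NUSAP1 and STMN1 on the probe used only, and cyclin D3, CDC20 and Aurora B were the 3 higher ones. BIRC5, listed with the chromosome genes, had a difference of 0.00. In limma, 12 of the 31 kept genes passed an adjusted p of 0.05, 3 higher and 9 lower in CD8, which is 38.7% against 36.1% of all genes tested (15.3% higher and 20.8% lower). That share is near the background and is not a result about the cell cycle genes, whose median difference was -0.06 against 0.01 over all genes. Without animal 3 of the anti-IL-15 group 14 genes passed, and without animal 4 of that group 11.

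Among the G1 genes, CCND3 (cyclin D3, a partner of CDK4 and CDK6) ran from 10.66 over a median of 10.89 to 11.27 in CD8 TCM, against 9.92, 10.24 and 10.88 in CD4 TCM. It was higher in CD8 in 12 of 12 animals, and only the highest CD4 sample reached the CD8 range. The difference was 0.62 ± 0.09 (moderated SE; 1.54-fold, adjusted p = 2.1e-05). CCND2 (cyclin D2) went the other way, at 7.54, 8.11 and 8.46 in CD8 against 7.75, 8.41 and 9.13 in CD4. The ranges overlapped, and 9 of 12 animals were lower in CD8 (-0.34 ± 0.12, adjusted p = 0.037). The CCND2 call passed in 7 of 12 fits that left out 1 animal and was lost without the animal as a block (adjusted p = 0.075). CDK4 and CDK2, the kinases of G1 and of the step into S phase, had differences of 0.00 and 0.08 with adjusted p above 0.05.

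Of the 7 kept helicase and fork genes only MCM4 passed, at -0.29 ± 0.10 (adjusted p = 0.030), and its levels in the CD8 samples (5.79 to 6.70) lay within those of the CD4 samples (5.63 to 7.51). Its adjusted p was 0.18 without the animal as a block and 0.10 with it as a random block, so the call rests on the fixed block. A second MCM4 probe past the filter gave -0.16 (adjusted p = 0.24), so the call also rests on the probe used. MCM6, another subunit of the same helicase ring, had an estimate of 0.25 (adjusted p = 0.059). None of RRM1, TK1 and TYMS passed.

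In mitosis, TOP2A (topoisomerase II alpha, which untangles sister chromatids) had the largest difference among the kept genes. It ran from 4.41 over a median of 5.05 to 6.31 in CD8 TCM, with 5 of 12 samples detected, against 5.07, 6.10 and 6.93 in CD4 TCM, with 11 of 12 detected. CD8 was lower in 11 of 12 animals, by -0.88 ± 0.15 (adjusted p = 0.00018), although the ranges overlapped.

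NUSAP1, a microtubule-binding protein of the spindle, ran from 5.35 over 6.01 to 6.85 in CD8 against 6.13, 6.79 and 7.63 in CD4, and was lower in CD8 in 12 of 12 animals (-0.67 ± 0.12, adjusted p = 0.00016). CENPF, a kinetochore protein of G2 and mitosis, ran from 7.46 over 8.22 to 8.75 in CD8 against 8.24, 8.77 and 9.07 in CD4, again lower in 12 of 12 (-0.58 ± 0.11, adjusted p = 0.00037). Both pairs of ranges overlapped, while every animal had the lower value in CD8. STMN1 (stathmin, which destabilises microtubules) was lower in CD8 in 11 of 12 animals, by -0.44 ± 0.11 (adjusted p = 0.0040).

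CDC20, the activator of the anaphase-promoting complex, was on the CD8 side. It ran from 5.98 over 7.14 to 8.60 in CD8 against 5.73, 6.60 and 7.74 in CD4, and was higher in CD8 in 11 of 12 animals (0.62 ± 0.14, adjusted p = 0.0015). AURKB, the kinase of the chromosomal passenger complex, was also higher in 11 of 12 animals, by 0.35 ± 0.10 (adjusted p = 0.0068). The AURKB call was lost without the animal as a block (adjusted p = 0.48) and with it as a random block (0.35), and that of CDC20 without the block (0.096). The remaining calls were small and lower in CD8: CDK1 (-0.30, lost without the block at an adjusted p of 0.22 and with a random block at 0.13), KIF11 (-0.30), a spindle motor that entered the test through CD4 only, and CCNA2 (-0.27), whose adjusted p of 0.045 was past the threshold in 2 of 12 fits that left out 1 animal.

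After treatment, 6 of the 31 genes passed between CD8 and CD4 TCM of the anti-IL-15 animals (background 24.6%, 9.80% higher and 14.8% lower) and 8 between those of the IgG1 animals (background 30.2%, 11.4% higher and 18.8% lower). Higher in CD8 after anti-IL-15 were CDC20, TYMS and CCND3, and lower were NUSAP1, CCND2 and TOP2A. After IgG1 the higher genes were CDC20, MCM6, CCND3 and TYMS, and the lower ones TOP2A, CENPF, NUSAP1 and CCND2. The shares of the kept genes, 19.4% and 25.8%, lay below the background. Without animal 4 of the anti-IL-15 group 4 genes passed after anti-IL-15, NUSAP1 and TYMS no longer among them, and without animal 3 the count was 6.

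CDC20 had the largest positive difference after treatment. After anti-IL-15 it ran from 6.89 over 7.35 to 7.94 in CD8 against 6.17, 6.41 and 7.07 in CD4 (0.86 ± 0.15, adjusted p = 0.00060). After IgG1 it ran from 6.38 over 7.64 to 7.93 in CD8 against 5.48, 6.09 and 6.76 in CD4 (1.30 ± 0.15, 2.46-fold, adjusted p = 1.5e-05). Every one of the 12 animals was higher in CD8, and after IgG1 a single CD8 sample lay within the CD4 range.

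TOP2A was detected in 3 of 6 CD8 samples after anti-IL-15 and in 1 of 6 after IgG1, and in all 12 CD4 samples. Its levels after IgG1 were 4.38, 4.69 and 5.83 (lowest, median, highest) in CD8 against 5.50, 5.79 and 6.31 in CD4, with only the highest CD8 sample inside the CD4 range (-1.05 ± 0.14, adjusted p = 5.8e-05). After anti-IL-15 the levels were 4.79, 5.18 and 5.47 in CD8 against 5.11, 5.74 and 6.25 in CD4 (-0.58 ± 0.14, adjusted p = 0.0058). In both comparisons 6 of 6 animals were lower in CD8.

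NUSAP1 after anti-IL-15 was 5.30, 5.82 and 6.79 in CD8 against 6.28, 6.57 and 6.75 in CD4, with 5 of 6 animals lower in CD8 (-0.65 ± 0.18, adjusted p = 0.016). After IgG1 it was 4.98, 5.74 and 6.24 in CD8 against 6.22, 6.45 and 6.81 in CD4, with 6 of 6 lower (-0.80 ± 0.18, adjusted p = 0.0036). The groups overlapped in both, after IgG1 only at their edges.

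CCND2 after anti-IL-15 was 7.55, 7.87 and 8.23 in CD8 against 8.30, 8.41 and 8.66 in CD4, the only gene among these calls named here whose groups did not overlap (-0.61 ± 0.11, adjusted p = 0.0011). After IgG1 it differed by -0.44 ± 0.11 (adjusted p = 0.0071) with overlapping groups. CCND3 differed by 0.47 ± 0.12 after anti-IL-15 and 0.59 ± 0.12 after IgG1, in the direction seen before treatment and in 6 of 6 animals each. Cyclin D2 and cyclin D3, which serve the same kinases, thus lay on opposite sides in all 3 comparisons.

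CENPF after IgG1 was 6.87, 7.70 and 8.29 in CD8 against 8.18, 8.63 and 9.06 in CD4 (-0.97 ± 0.25, adjusted p = 0.0068). After anti-IL-15 its estimate was -0.56 (adjusted p = 0.11). MCM6 after IgG1 was 7.31, 7.94 and 8.30 in CD8 against 7.01, 7.20 and 7.69 in CD4 (0.60 ± 0.14, adjusted p = 0.0032). The 2 cell types overlapped for both genes.

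TYMS, the thymidylate synthase, had a difference of 0.01 before treatment (95% interval -0.24 to 0.26). After anti-IL-15 it was 5.90, 6.38 and 6.64 in CD8 against 5.60, 5.80 and 6.16 in CD4 (0.51 ± 0.17, adjusted p = 0.037). After IgG1 it was 5.51, 6.32 and 6.82 in CD8 against 5.54, 5.73 and 6.08 in CD4 (0.48 ± 0.17, adjusted p = 0.044). Its groups overlapped, and the calls after anti-IL-15 and after IgG1 held in 8 and 5 of the 12 fits that left out 1 animal. Both were lost without the animal as a block (adjusted p of 0.083 and 0.093).

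On the probe used, 5 of the 31 genes passed in all 3 comparisons, each in 1 direction: CCND3 and CDC20 higher in CD8, and CCND2, TOP2A and NUSAP1 lower. Without the animal as a block, CDC20 and CCND2 did not pass before treatment (adjusted p of 0.096 and 0.075). TOP2A (0.061) and CCND3 (0.072) did not pass after anti-IL-15 in that fit, and NUSAP1 alone of the 5 passed in all 3 comparisons. The fit leaves out the pairing of CD8 and CD4 samples within an animal, so it does not rank the 5 genes. For the lost calls the estimates were unchanged and the SE was larger. The plot of CD8 minus CD4 differences shows these 5 beside the others, and the plot of sample values shows how far the groups overlap. For NUSAP1 a dimmer probe past the same filter gave -0.01 before treatment, -0.07 after anti-IL-15 and 0.38 after IgG1, so the size of the difference, and after IgG1 its sign, rests on the probe used. For STMN1 the second probe gave 0.12 before treatment, opposite to the probe used. For CCND2 the second probe gave -0.33, -0.41 and -0.21, the same direction, with adjusted p of 0.061, 0.20 and 0.52. BUB3, a checkpoint protein with 3 probes past the filter, had 0.17 before treatment on the probe used and -0.55 (adjusted p = 0.0066) and -0.18 on the others. The probe at -0.55 also gave -0.62 after anti-IL-15 (adjusted p = 0.013) and -0.95 after IgG1 (adjusted p = 0.00055), against 0.15 and 0.18 on the probe used. A BUB3 probe thus passed in all 3 comparisons, opposite to the probe used, which passed in none.

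The number of sorted cells does not separate from cell type. CD8 samples came from 23000 to 116000 cells and CD4 samples from 197000 to 958000, and with the cell count as a covariate 0 of the 31 genes passed in any of the 3 comparisons; cell number and cell type cannot be told apart. Summed markers of other cells also differed between CD8 and CD4 TCM, and most kept NK, B cell and monocyte markers were higher in CD8 before treatment. The 7 NK markers kept of 9 summed to 912 to 3024 intensity units in CD8 and 452 to 723 in CD4. The 4 B cell markers kept of 10 summed to 343 to 778 against 150 to 305, with PAX5 and BLK detected in no sample. The 7 monocyte markers kept of 8 summed to 1547 to 6819 against 1222 to 2783, with S100A8 detected in no sample. Before treatment the CD8 minus CD4 difference was 2.96 for GNLY but -0.16 for FCGR3A, both NK markers. Among the B cell markers it was 2.06 for CD79B but 0.05 for MS4A1, and among the monocyte markers 1.43 for LYZ but -0.25 for VCAN. The 3 erythroid markers kept of 5 summed to 212 to 27430 in CD8 and 470 to 23530 in CD4, and none of them passed between the cell types. Whether other cells were present, and the part of these markers in the differences, was not tested.

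**Figure D2:**
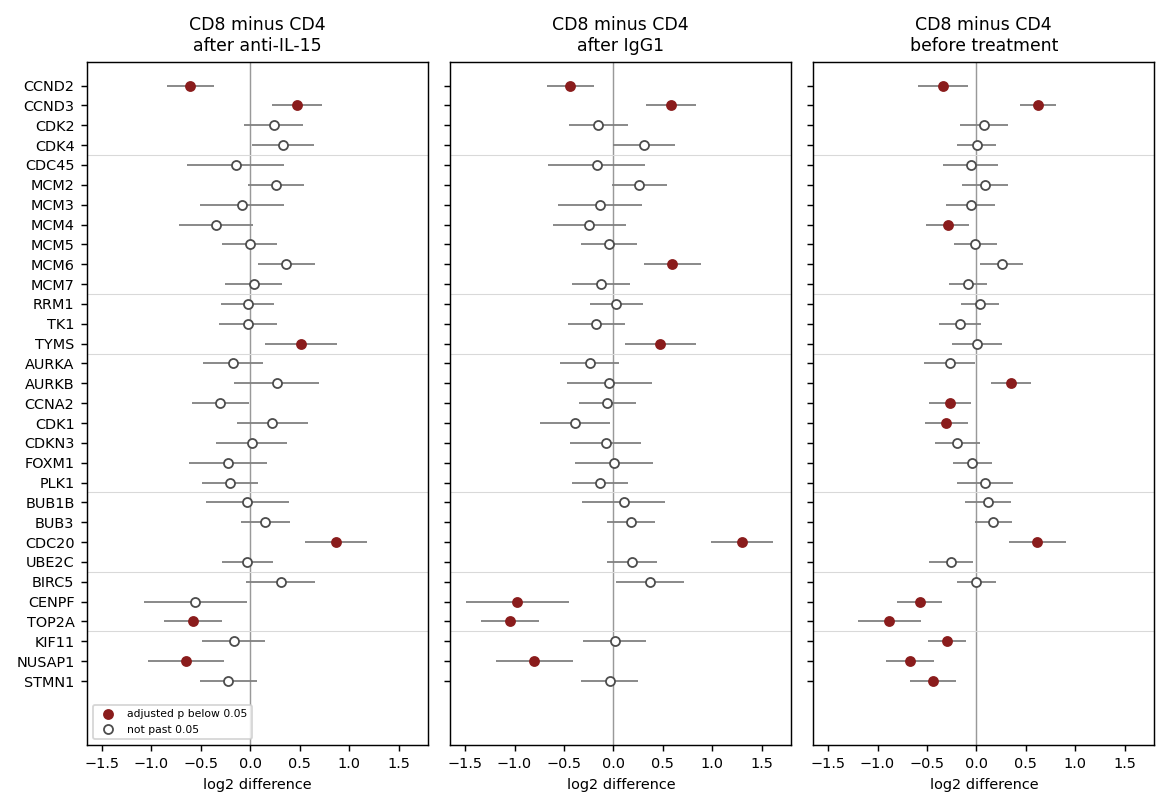
CD8 minus CD4 difference in log2 intensity (horizontal axes, bars are 95% confidence intervals of limma) for the 31 kept genes ordered by role, after anti-IL-15 and after IgG1 (6 animals each) and before treatment (12 animals), with filled points past an adjusted p of 0.05. CCND3 and CDC20 lie right of 0 and CCND2, TOP2A and NUSAP1 left of 0 as filled points in all 3 panels.

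**Figure D3:**
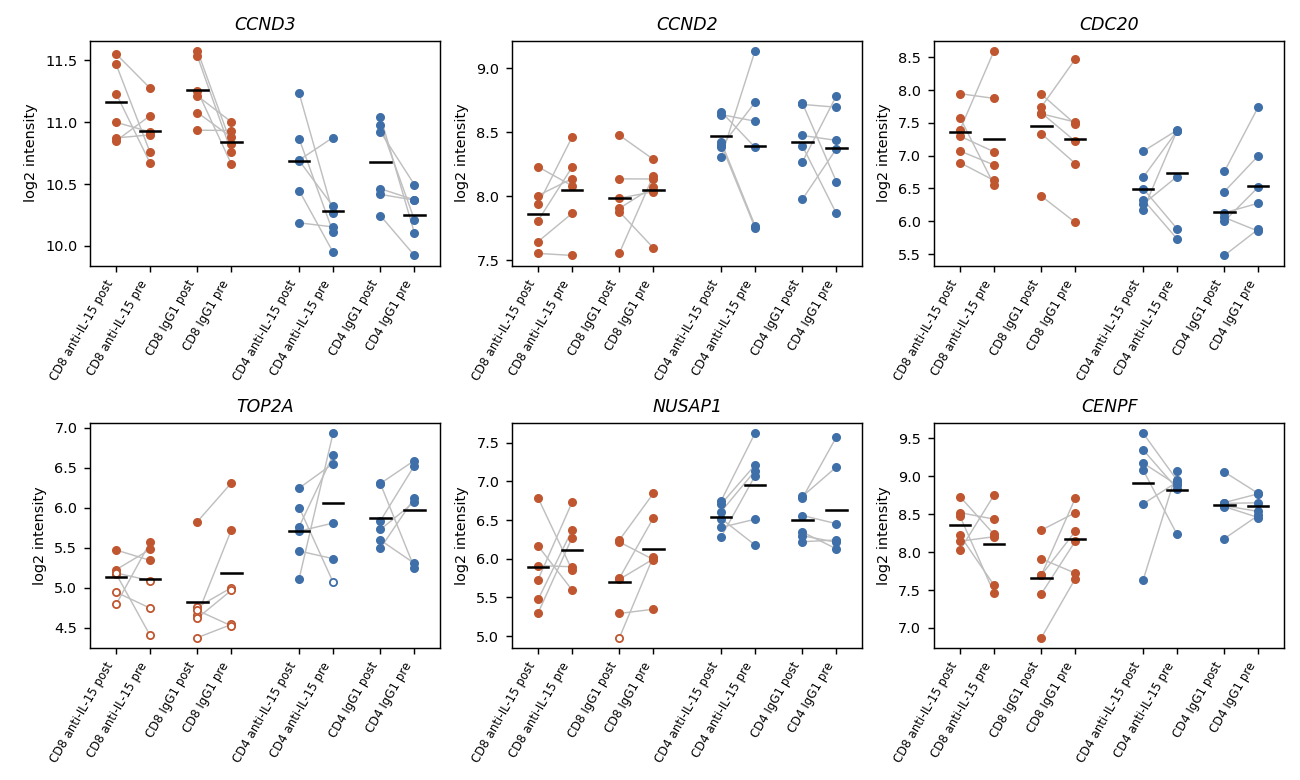
Log2 intensity (vertical axes) of 6 genes in every sample of the 8 groups, CD8 TCM in orange and CD4 TCM in blue, with open circles where the probe was not detected, black bars at group means (n = 6) and grey lines joining an animal's post-treatment and pre-treatment samples. CCND3 and CDC20 sit higher in CD8 and the other 4 higher in CD4, with overlap, and CCND3 means are higher post than pre in each of the 4 pairs of groups.

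After anti-IL-15, 0 of the 31 genes passed in CD8 TCM against the same animals before treatment. The background was 0.160% of all genes tested. At an unadjusted p below 0.05, 1 of 31 genes (3.23%) lay past the threshold, against 9.11% of all genes. The median change was -0.02, as over all genes, with 15 estimates above 0 and 16 below.

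That gene was CDK1, the kinase of mitotic entry. It ran from 4.98 over 5.44 to 6.65 post against 4.79, 4.97 and 6.13 pre, with overlapping groups, 4 of 6 samples detected post and 2 of 6 pre. The estimate was above 0 in 6 of 6 animals, at 0.36 ± 0.14 (adjusted p = 0.46) and 0.33 without animal 4. The next lowest p-values belonged to CDK2 (-0.23), PLK1 (-0.27), CCND3 (0.23) and TYMS (0.31), with adjusted p of 0.62 to 0.69. The 95% interval of TYMS ran from -0.13 to 0.76 and that of TOP2A, at 0.03, from -0.35 to 0.40. Beside these values, the NK marker sum ran from 1383 to 2172 post against 912 to 1457 pre, and its part was not tested.

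After IgG1, 0 of 31 genes and 0 of all genes passed in CD8 TCM (background 0%). Past an unadjusted p of 0.05 were 2 genes, against 7.00% of all genes. CCND3 ran from 10.93 over 11.23 to 11.57 post against 10.66, 10.85 and 11.00 pre, with 6 of 6 animals above 0 and only the lowest post sample inside the pre range (0.42 ± 0.15, adjusted p = 0.69). CENPF ran from 6.87 over 7.70 to 8.29 post against 7.65, 8.21 and 8.71 pre, with 5 of 6 animals below 0 (-0.52 ± 0.19, adjusted p = 0.69).

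In CD4 TCM after anti-IL-15, 0 of 31 genes passed (background 0.0321%). At an unadjusted p below 0.05 there were 5, against 5.67% of all genes. CCND3 ran from 10.19 over 10.69 to 11.23 post against 9.95, 10.21 and 10.88 pre (0.41 ± 0.16, adjusted p = 0.77). CDK4 ran from 6.28 over 6.89 to 6.98 post against 6.83, 7.31 and 7.46 pre (-0.47 ± 0.16, adjusted p = 0.69). Both pairs of groups overlapped, and 5 of 6 animals lay above 0 for CCND3 and 4 of 6 below 0 for CDK4.

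NUSAP1 had a change of -0.41 ± 0.16, MCM7, a helicase subunit, one of -0.29 ± 0.14 with 6 of 6 animals below 0, and UBE2C, the ubiquitin carrier of the anaphase-promoting complex, one of -0.41 ± 0.19, with adjusted p of 0.80 to 0.87. Without animal 3 of the anti-IL-15 group CCND3 had 0.29, CDK4 -0.33 and UBE2C -0.59. No call depended on that animal, since the count was 0 in every fit.

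In CD4 TCM after IgG1, 0 of 31 genes passed (background 0%), and 5 had an unadjusted p below 0.05, against 3.65% of all genes. CCND3 was 10.24, 10.69 and 11.04 post against 9.92, 10.29 and 10.50 pre (0.43 ± 0.16), with 6 of 6 animals above 0. STMN1 was 5.18, 5.34 and 5.57 post against 5.32, 5.91 and 6.49 pre (-0.52 ± 0.20), with 5 of 6 animals below 0, but its second probe gave 0.28. TYMS was 5.54, 5.73 and 6.08 post against 5.76, 6.19 and 7.06 pre (-0.49 ± 0.20), with 5 of 6 animals below 0. All 3 pairs of groups overlapped, and the adjusted p was 1.00 for each.

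KIF11, which entered through CD4 only, had a change of -0.35 ± 0.14 in that comparison. It was detected in 1 of 6 samples post and 3 of 6 pre, so the limit given for UBE2C holds for it too. UBE2C was detected in 0 of 6 samples post and 3 of 6 pre, with measured means of 4.69 post and 5.13 pre. The bound on its fold of pre over post was 1.07. It carries no sampling error, and UBE2C entered through CD4 only, so the bound supports no difference. A bound of this kind sets the mean of the brighter group against the dimmest signal that counts as detected on the arrays of the other.

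The direct tests between changes gave no calls among the 31 genes either (background 0% in each). For the anti-IL-15 change minus the IgG1 change, 2 genes had an unadjusted p below 0.05 in CD8, against 7.33% of all genes: CENPF (0.76 ± 0.27) and CDK1 (0.56 ± 0.20), both with adjusted p of 0.63. In CD4 none did, against 3.81%, and the lowest p belonged to STMN1 (0.51 ± 0.28), whose second probe gave -0.20. For the CD8 change minus the CD4 change after anti-IL-15, 2 did, against 3.62%: TYMS (0.69 ± 0.31, above 0 in 6 of 6 animals) and CDK1 (0.56 ± 0.24, in 5 of 6), both with adjusted p of 1.00. That fit took the CD8 and CD4 changes of an animal as independent, although over the 31 genes they correlated with a median r of 0.35. Its SE and p-values therefore do not measure how the within-animal difference varies. Between the antibody groups before treatment, 0 genes had an unadjusted p below 0.05 in CD8, against 6.36% of all genes. In CD4 there were 2, STMN1 (-0.44) and CDK2 (-0.41), against 11.3%, and none passed after adjustment in either cell type. A second probe gave 0.15 for STMN1 and 0.15 for CDK2, opposite to the probes used.

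CCND3 had a positive estimate in all 4 changes, 0.23 and 0.41 after anti-IL-15 and 0.42 and 0.43 after IgG1 in CD8 and CD4 TCM. A change over both antibodies was therefore fitted in each cell type, a choice made after these values were seen. CCND3 was above 0 in 10 of 12 animals in CD8 (0.33 ± 0.10, adjusted p = 0.40) and in 11 of 12 in CD4 (0.42 ± 0.11, adjusted p = 0.55), so it did not pass. In CD8, 0 genes of the list passed (background 0%), and PLK1 (-0.27) was the other gene with an unadjusted p below 0.05, against 9.57% of all genes. Of the 31 genes, 22 had an estimate below 0, with a median of -0.08, against 5380 of the 9355 genes and a median of -0.03.

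In CD4 over both antibodies, 0 genes of the list passed (background 0.0107%) and 7 had an unadjusted p below 0.05, against 5.59% of all genes. Besides CCND3 these had estimates below 0 and belong to nucleotide synthesis, G1 and mitosis. They were TYMS (-0.43 ± 0.14), UBE2C (-0.42 ± 0.13), BIRC5 (-0.41 ± 0.16), a passenger complex subunit also known as survivin, CDK4 (-0.34 ± 0.11), CDC20 (-0.32 ± 0.14) and NUSAP1 (-0.27 ± 0.12). TYMS and UBE2C were below 0 in 10 of 12 animals, UBE2C with the limit of detection given above, and the adjusted p of these 6 ran from 0.81 to 0.87. Of the 31 genes, 25 had an estimate below 0, with a median of -0.14, against 5078 of the 9355 genes and a median of -0.01. Estimates below 0 thus outnumbered those above 0 in both cell types, and the difference between the cell types in these counts was not tested. These counts describe the genes that passed the detection rule.

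**Figure D4:**
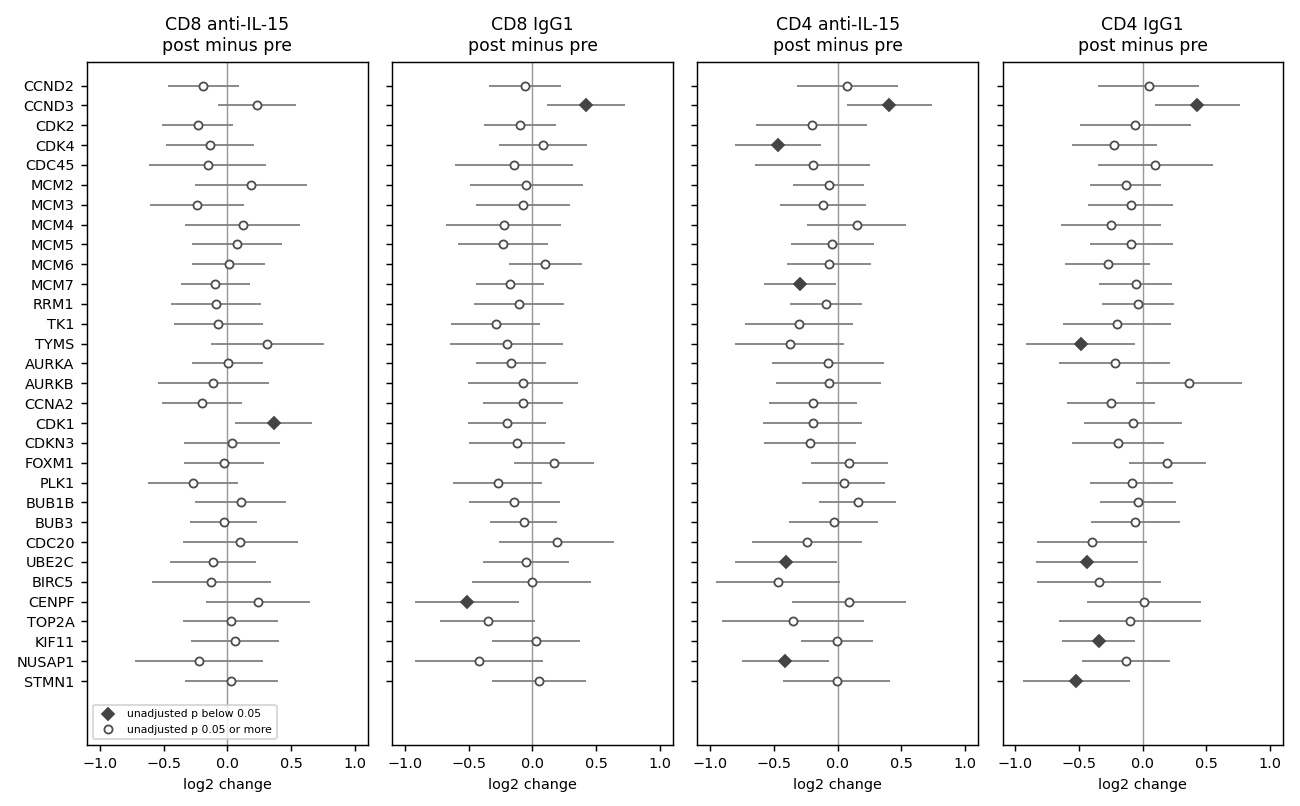
Post minus pre change in log2 intensity (horizontal axes, bars are 95% confidence intervals of limma) for the 31 kept genes in the same order, by cell type and antibody (6 animals each), with diamonds where the unadjusted p was below 0.05. No gene passed after adjustment, CCND3 lies right of 0 in all 4 panels, and 16 (CD8 anti-IL-15), 24 (CD8 IgG1), 24 (CD4 anti-IL-15) and 25 (CD4 IgG1) of 31 estimates lie left of 0, against 5095, 5350, 5315 and 4680 of 9355 genes.

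A few genes, BIRC5 among them, were high in the same animals in both cell types before treatment, whereas many others were not. BIRC5 in CD4 TCM before treatment was 6.68 and 6.04 in anti-IL-15 animals 1 and 4 and 6.47 and 5.99 in IgG1 animals 2 and 3, against 4.59 to 5.38 in the other 8 animals. In CD8 TCM of those animals it was 6.44 and 6.23, and 6.68 and 5.57, against 4.57 to 5.59 in the others. The same 4 animals had the highest TK1 (thymidine kinase) in CD4 TCM, at 6.04, 5.80, 5.61 and 5.60, against 4.46 to 5.04. TK1 entered the test through CD4 only. Before treatment it was detected in 4 of 12 CD8 and 5 of 12 CD4 samples, so most of its values lay near background. In the post-treatment CD4 samples of these 4 animals BIRC5 was 4.93 and 5.36 after anti-IL-15 and 5.14 and 4.85 after IgG1. All 12 post-treatment CD4 samples lay between 4.81 and 5.36. In CD8 TCM of the 4 animals it was 5.42 and 4.97 after anti-IL-15 and 6.30 and 5.03 after IgG1, so IgG1 animal 2 remained the highest of its group. Animals are named here for their values, so no group was formed from them and no test made.

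Across the 12 animals before treatment, CD8 and CD4 levels of AURKB correlated with r = 0.95 (rho = 0.95, and r = 0.93 without the 2 animals farthest from the CD8 median). BIRC5 had r = 0.91 (rho = 0.81, and 0.80 without the 2 farthest) and TK1 r = 0.80 (rho = 0.80, and 0.76). CDC20 had 0.73, falling to 0.54 without the 2 farthest, and CDK1 had 0.72, falling to 0.30, so the CDK1 value rests on those animals. Over the 31 genes the median r was 0.45, with 12 above 0.5, against 0.20 and 20.4% over all genes. After treatment the medians were 0.35 and 0.25. PLK1 and FOXM1, dim genes that like TK1 entered through CD4 only, had r of -0.58 and -0.53 before treatment. CCNA2 had -0.01, BUB1B 0.00, CDC45 0.11 and AURKA 0.27. The points are 12 animals whose 2 samples share the animal and the time point, so these values are descriptions. The plot of CD8 against CD4 levels shows 4 of these genes.

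**Figure D5:**
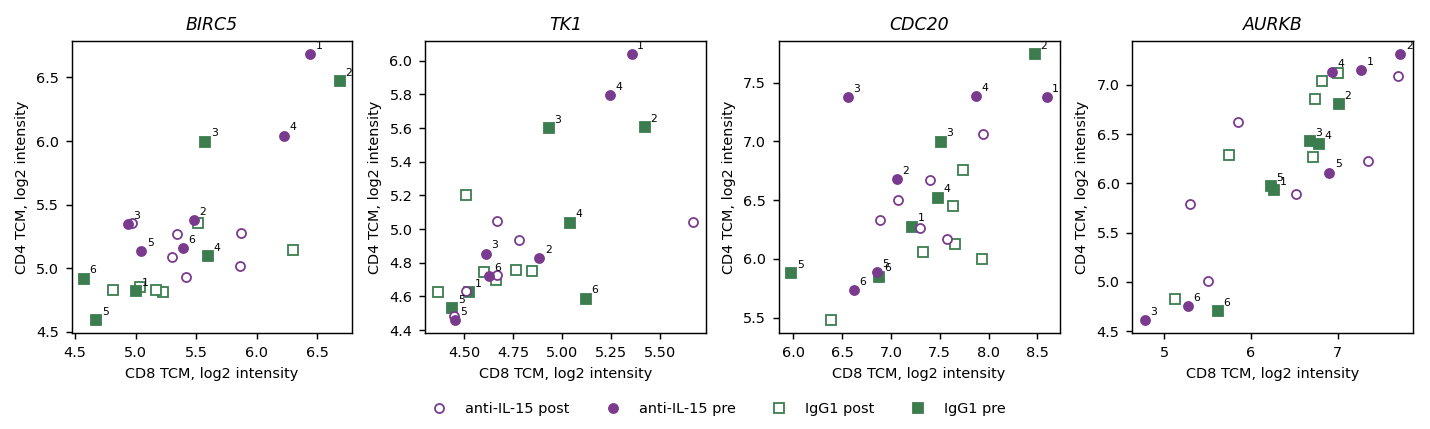
Log2 intensity in CD4 TCM (vertical axes) against CD8 TCM (horizontal axes) of the same animal for BIRC5, TK1, CDC20 and AURKB, with post-treatment samples as open and pre-treatment samples as filled, numbered symbols, anti-IL-15 animals as purple circles and IgG1 animals as green squares. Filled symbols reach higher on the CD4 axis for BIRC5 and TK1, while on the CD8 axis the highest TK1 symbol is open. AURKB falls along a line with r = 0.95 before treatment.

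The spread between animals in CD4 TCM was smaller post than pre for some genes and larger for others. The SD of 6 animals was lower post for 22 of the 31 genes in the anti-IL-15 group and for 19 in the IgG1 group, against 46.2% and 48.1% of all genes. For BIRC5 it was 0.17 post against 0.62 pre after anti-IL-15, and 0.23 post against 0.75 pre after IgG1. For CDK1 it was 0.17 against 0.55 and 0.20 against 0.48. It was larger post with both antibodies for CENPF, at 0.70 against 0.30 and 0.28 against 0.14, for FOXM1, at 0.26 against 0.09 and 0.32 against 0.18, and for CCND3, at 0.36 against 0.32 and 0.34 against 0.21. BIRC5 was detected in 3 of 6 samples post against 6 of 6 pre in the anti-IL-15 group and in 2 of 6 against 3 of 6 in the IgG1 group, and FOXM1 in 1 of 6 against 0 of 6 and in 3 of 6 against 2 of 6. In CD8 TCM the SD was lower post for 16 and 13 of 31 genes, against 47.9% and 39.5% of all genes. The difference in spread was noticed in these values and was not tested.

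Pairs of kept genes were also correlated within a cell type, after the mean of its group was subtracted from each sample. Of the 465 pairs, 39 lay above 0.6 over the 24 CD4 samples and 12 over the 24 CD8 samples, with medians of 0.19 and 0.10. The share over pairs of all genes was not computed, so these counts have no background. The highest pair in CD4 was TK1 with BIRC5 (r = 0.90), followed by CDC20 with NUSAP1 (0.86) and CDK1 with UBE2C (0.81). In CD8 the highest pair was UBE2C with BIRC5 (0.77). These pairs include dim genes, since TK1 and UBE2C were each detected in 7 of the 24 CD4 samples and UBE2C in 4 of the 24 CD8 samples. The 24 samples are 12 animals seen 2 times, and the values are descriptions.

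Other genes of the cycle were followed in 4 lists. Of 48 other S phase genes 27 were kept, of 56 other mitosis genes 33, of 30 genes of brakes and quiescence 20, and of 18 genes of growth signals into G1 16. After either antibody 0 of them passed in CD8 or CD4 TCM. The lowest adjusted p was that of CDKN1A (p21, an inhibitor of cyclin-dependent kinases) in CD8 after anti-IL-15, at 0.93 ± 0.20 with 6 of 6 animals above 0 (adjusted p = 0.081). In CD4 after anti-IL-15 it was 0.78 ± 0.23 (adjusted p = 0.49), and CDKN1B (p27, another such inhibitor) was 0.75 ± 0.24 (adjusted p = 0.61). After IgG1 the lowest p in CD8 among the brakes was that of CCNG2, an atypical cyclin of resting cells, at -0.63 ± 0.22 (adjusted p = 0.69). For the anti-IL-15 change minus the IgG1 change, 0 of the 20 kept brakes passed (background 0% in each cell type). The lowest adjusted p of a brake was 0.63 in CD8 and 0.998 in CD4.

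Between CD8 and CD4 TCM before treatment, 9 of the 20 kept brakes passed, 1 higher and 8 lower in CD8 (45.0%), with a median of -0.19 against 0.01 over all genes. Lower were FOXO1 (-0.62 ± 0.09), a transcription factor of resting T cells, TXNIP (-0.44), CDKN2D (-0.51), an inhibitor of CDK4 and CDK6, CDKN1B (-0.61) and RBL2 (-0.79), the retinoblastoma relative p130. After anti-IL-15, 9 brakes passed (45.0%, background 24.6%) and after IgG1 8 (40.0%, background 30.2%), 1 of them higher each time. Of the other S phase, mitosis and growth signal genes, 4 of 27, 5 of 33 and 4 of 16 passed after anti-IL-15, and 7 of 27, 7 of 33 and 3 of 16 after IgG1. CDKN1B was at -0.997 ± 0.21 after anti-IL-15 (adjusted p = 0.0024) and -0.86 ± 0.21 after IgG1 (adjusted p = 0.0047).

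Of the 33 kept mitosis genes, 9 passed before treatment, 1 higher and 8 lower in CD8. NCAPD2, a condensin subunit, was at -0.97 ± 0.14 (adjusted p = 2.1e-05), and the others named are FBXO5 (-0.50), PTTG1 (-0.59) and ESPL1 (-0.68), the separase that cuts cohesin. CDC25B, a phosphatase that activates CDK1, was the 1 higher gene (0.58). Of the 27 kept S phase genes, 8 passed, 4 in each direction, among them POLD1 (0.83 ± 0.11), a DNA polymerase subunit, E2F2 (-0.82 ± 0.11) and PRIM1 (-0.64 ± 0.09), a primase subunit. Of the 16 kept growth signal genes, 6 passed, 1 higher and 5 lower, with BCL2, a survival gene, at -1.04 ± 0.15 and RPS6KB1, a kinase downstream of mTOR, at -0.63 ± 0.11. These counts stand beside the background of 36.1%.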

How the data were processed

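The arrays were Illumina human BeadChips hybridised with amplified total RNA of rhesus macaque TCM. The deposited non-normalized table holds the authors' probe intensity per array, per the file headers, on a linear scale, and beside it the detection p-value of each probe. The authors' deposited value table is on a log2 scale, and 99.9% of its values lay within 0.001 of quantile-normalized log2 intensities recomputed here, although the step is not given in the sources used here. The submitters' processing notes name limma with no version.

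From the intensities, background was corrected per array with normexp using the detection p-values and an offset of 16, followed by quantile normalization and log2 (limma 3.58.1, R 4.3.3). No probe depth exists for arrays, whose number limits the precision. Of 47230 probes, 30113 carried 1 gene symbol, 8 several and 17109 none, and only the first kind was used. The 9355 genes kept by the detection rule entered lmFit and eBayes, with Benjamini-Hochberg adjustment over all of them at 0.05. Post against pre and CD8 against CD4 were fitted with the animal as a fixed block, since the labels name the animal. The CD8 change minus the CD4 change was fitted with each cell type of an animal as its own fixed block. Same-animal samples deviated together, with a median correlation of 0.39 (anti-IL-15 animals) and 0.37 (IgG1 animals) in CD8, and 0.22 (anti-IL-15 animals) and 0.40 (IgG1 animals) in CD4. The lowest correlation of an animal was 0.10 (anti-IL-15) and 0.26 (IgG1) in CD8, and 0.01 (anti-IL-15) and 0.19 (IgG1) in CD4. A misspelt time point in the labels was read as post-treatment. The scripts were tested on simulated data with known changes.

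The members, their roles and the 4 lists of other cell cycle genes were chosen with earlier results of these data known. Members past the threshold were named with values, up to 12 a comparison, or else the 5 with the lowest p. Other genes were named only from the lists, up to 5 a list and comparison. Alternatives were the deposited values, other background corrections and filters, every probe of a gene, another moderation, the sorted cell count, a threshold of 0.1, each animal left out, and no or a random block.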

Additional observations from a re-analysis of the deposited data

Results flagged for a closer look

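In 17 of the 248 groups of 6 samples (31 genes in 8 groups), 1 sample lay far from the rest beyond the 95% critical value of Dixon's test. Chance flags about 1 in 20 groups. All values are log2 intensities. In CD8 TCM after anti-IL-15, CDK1 was 6.65 in animal 4, against 5.52 in the nearest animal. TK1 was 5.67 in the same sample, one of the 3 least like their cell type, against 4.78. KIF11 was 5.34 in animal 1, against 4.89.

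In CD8 TCM after IgG1, TOP2A was 5.83 in animal 2, against 4.76 in the nearest animal, and it was the only CD8 sample of that group in which TOP2A was detected. AURKA was 5.54 in animal 1, against 4.85, and KIF11 was 5.25 in animal 5, against 4.81. In animal 3 CDKN3 was 5.19, against 4.73, and BUB1B was 4.83, against 5.28. Before IgG1 the CD8 levels of MCM2 were 5.77 in animal 2, against 4.9, those of CDK2 7.27 in animal 1, against 6.88, and those of CCND2 7.6 in animal 3, against 8.03.

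In CD4 TCM after anti-IL-15, MCM3 was 4.99 in animal 5, against 5.68. Before anti-IL-15 CENPF was 8.24 in animal 1, against 8.84. After IgG1 AURKB was 4.83 in animal 6, against 6.26, and TK1 was 5.2 in animal 4, against 4.76. BUB1B was 5.7 in animal 3, against 5.18, and CDKN3 was 5.14 in animal 2, against 4.8. No cause was tested for any of these samples.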

How the results depend on the processing

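The counts of genes past the threshold between CD8 and CD4 TCM were 12 before treatment, 6 after anti-IL-15 and 8 after IgG1. With a covariate for the sorted cell count they were 0, 0 and 0. The cell counts of CD8 and CD4 samples do not overlap, so cell count and cell type cannot be told apart. Under the same covariate 5 estimates reversed: TOP2A (0.008), NUSAP1 (0.0772), CDK1 (0.1129) and KIF11 (0.0075) before treatment, and NUSAP1 after anti-IL-15 (0.0439). Over the named genes and the alternatives, 1707 values kept their direction and side of the threshold and 82 kept the direction but no longer passed. Without the replicate block the counts were 7, 3 and 7, and with the animal as a random block 9, 6 and 8. The block changed no call in the comparisons of post with pre. Leaving out 1 animal gave 9 to 14, 4 to 7 and 7 to 9 genes, and 0 to 0 in each comparison of post with pre, of antibodies and of changes. Of the called genes, CCNA2 before treatment passed in 2 of 12 such fits, CCND2 and CDK1 in 7 and MCM4 in 8. TYMS passed in 8 of 12 after anti-IL-15 and 5 of 12 after IgG1, NUSAP1 after anti-IL-15 in 9 of 12, and the other called genes in 12 of 12. Calls of AURKB, CDK1 and MCM4 before treatment were lost without the block and with a random block. Those of CDC20 and CCND2 before treatment, TOP2A, CCND3 and TYMS after anti-IL-15 and TYMS after IgG1 were lost without the block only. CCND2 before treatment was also lost with no filter on dim probes, and CCNA2 before treatment and both TYMS calls under several settings of background or filter or moderation. For the calls lost without the block or with a random block, the estimates were unchanged and the SE was larger. AURKB stayed at 0.351, with an SE of 0.3377 without the block and 0.2798 with a random block. The fit without the block leaves out the pairing within animals. The cause of the other losses was not tested. The slide as a block was not run because the files name no slides. Signal close to background limits the dimmest genes, such as UBE2C, FOXM1 and PLK1.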
